A study of Mus musculus with 24 samples.

Results

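Gene expression in LEGSKO cortical lens fiber cells was compared with that in wild-type (WT) cortical lens fiber cells by RNA sequencing of mouse lens. The comparison used 8 of the 24 libraries of the series, 4 of LEGSKO fibers and 4 of WT fibers, chosen by their titles, and covered all 24415 genes of the deposited count table. LEGSKO mice were untreated and are labelled as mildly deficient in glutathione; WT mice were untreated as well, and the strain of both is given as C57BL/6. The series also holds LEGSKO fibers exposed to buthionine sulfoximine (BSO), an inhibitor of glutathione synthesis, and lens epithelia of the same conditions, 4 libraries each. The labels give no age, sex, Cre driver or deleted exon. They do not tie libraries to animals either, so p-values measure the spread between these libraries, which may be partly technical.

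Fiber cells form the bulk of the lens. They arise from the epithelium, fill with crystallins, the soluble proteins that refract light, and lose their nuclei and organelles as they mature, so damage to their proteins is repaired only to a limited degree. Glutathione is the main thiol antioxidant of the lens. Its synthesis begins with glutamate-cysteine ligase, made of the catalytic subunit Gclc and the modifier subunit Gclm, and ends with glutathione synthetase, Gss. The LEGSKO mouse is known as a line in which Gclc is deleted in the lens.

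Total counts were 22.4 to 25.5 M per library in LEGSKO fibers and 25.7 to 30.01 M in WT fibers. Crystallin genes took 29.6%, 34.3%, 33.1% and 30.5% of the counts in LEGSKO fiber libraries 1 to 4. In WT fiber libraries 1 to 4 the shares were 50.1%, 28.3%, 29.6% and 27.6%. WT fiber library 1 therefore stood apart from every other library of the comparison, and results are given with and without it. Its counts differed from those of the other WT fiber libraries by a chi-square of 289 to 369 per degree of freedom, against 6.94 to 38.4 for all other pairs within the LEGSKO and WT groups.

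**Figure D1:**
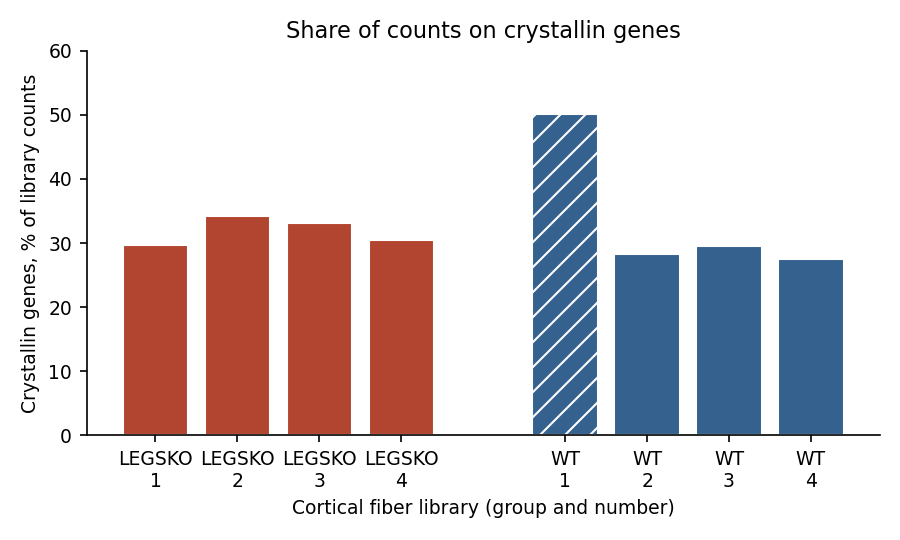
Share of library counts on crystallin genes (y axis, %) in LEGSKO and WT cortical fiber libraries 1 to 4, 1 bar per library, with WT library 1 hatched. WT library 1 reached 50.1%, whereas the other 7 libraries lay between 27.6% and 34.3%.

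The fiber label held against defining genes. Mip, the major intrinsic protein of fiber membranes, was at 12134 to 14276 CPM (here, counts per 1e6 counts of the library) in LEGSKO fibers and 14471 to 15408 in WT fibers, against 2105 to 2279 in WT epithelia. Foxe3, a transcription factor of the lens epithelium, was at 3.14 to 6.65 in LEGSKO fibers and 0.795 to 6.65 in WT fibers, against 186 to 294 in WT epithelia. The corneal keratin Krt12 was at 0 in all 8 fiber libraries. In such bulk samples, fewer cells of a type and less RNA per cell cannot be told apart.

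The genes of glutathione synthesis did not pass the test. Gclc had 66.9, 77.9, 81.2 and 76.6 CPM (from here on per 1e6 counts of the TMM-scaled library total) in LEGSKO fiber libraries 1 to 4 and 135, 71.9, 75.5 and 70.4 CPM in WT fiber libraries 1 to 4. Apart from the 135 CPM of WT fiber library 1 the values of the groups overlapped. The log2 fold change was -0.22 ± 0.16 (SE; adjusted p = 0.572), and 0.05 ± 0.07 without that library (adjusted p = 0.757). A count over the whole gene includes exons outside a deleted part, so it does not check the knockout. Gclm had 98.2, 97.7, 108 and 97.9 CPM in LEGSKO fibers and 69.5, 84.8, 88.2 and 90.5 CPM in WT fibers. These ranges did not overlap, but the difference did not pass the test with all libraries (log2 0.27 ± 0.08, adjusted p = 0.105) or without WT fiber library 1 (log2 0.19 ± 0.06, adjusted p = 0.103). With all libraries the adjusted p was 0.0357 with DESeq2 and 0.0472 with limma-voom. Gss averaged 472 ± 58.7 CPM in LEGSKO fibers and 453 ± 15.9 CPM in WT fibers (SD, n = 4 each; log2 0.06 ± 0.09, adjusted p = 0.812). Of the 23 tested genes of glutathione synthesis and turnover, 0 passed in edgeR, 2 had an unadjusted p below 0.05, and DESeq2 and limma-voom each called 2. Their median log2 change was -0.02, against -0.01 over all genes tested, of which 2011 (14.97%) had an unadjusted p below 0.05. Without WT fiber library 1 the list's median was 0.05 and 1 member passed, Mat2a, which makes S-adenosylmethionine (higher in LEGSKO); that call was lost in 6 of 7 fits without a further library (adjusted p up to 0.167).

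Across the transcriptome, 220 of 13436 genes tested differed between LEGSKO and WT fibers at an adjusted p below 0.05 (edgeR quasi-likelihood test, Benjamini-Hochberg adjustment), which is 1.64% of the genes tested. Of these, 147 (1.09%) rose and 73 (0.543%) fell in LEGSKO fibers. Most changes were small: 43 genes rose and 10 fell by 2-fold or more. For 217 of the 220 genes the 4 LEGSKO values did not overlap the 4 WT values, as was the case for 8.68% of all genes tested. Without WT fiber library 1, 591 of 13615 genes (4.34%) passed, 355 (2.61%) higher and 236 (1.73%) lower. Of the 220 genes, 218 were among the 591, all in the same direction. The count also rested on single libraries: it was 61 without LEGSKO fiber library 3, 96 without WT fiber library 2 and 96 without WT fiber library 4.

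The metal-binding protein metallothionein 1 showed the largest fold change among the genes named by rule. Metallothioneins are small cysteine-rich proteins that bind zinc and copper and scavenge radicals. Their genes are switched on by the zinc-sensing factor Mtf1 through metal response elements near the start site, here searched as TGCACNC or TGCGCNC on both strands. Mt1 and its neighbour Mt2 lie on the plus strand of chromosome 8, and their promoter windows, from 250 bases before to 50 after a start at 94179089 for Mt1 and 94172618 for Mt2 (RefSeq, GRCm38.p6), are shown because the genes differed in these fibers; capitals mark matches to the metal response element.
Mt1, chr8:94178839-94179138: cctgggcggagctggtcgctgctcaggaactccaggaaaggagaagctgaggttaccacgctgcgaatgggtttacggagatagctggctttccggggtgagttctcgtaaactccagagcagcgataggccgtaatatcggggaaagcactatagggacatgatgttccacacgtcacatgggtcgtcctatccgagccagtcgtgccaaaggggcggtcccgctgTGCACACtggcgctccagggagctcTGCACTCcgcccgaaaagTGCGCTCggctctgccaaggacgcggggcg
Mt2, chr8:94172368-94172667: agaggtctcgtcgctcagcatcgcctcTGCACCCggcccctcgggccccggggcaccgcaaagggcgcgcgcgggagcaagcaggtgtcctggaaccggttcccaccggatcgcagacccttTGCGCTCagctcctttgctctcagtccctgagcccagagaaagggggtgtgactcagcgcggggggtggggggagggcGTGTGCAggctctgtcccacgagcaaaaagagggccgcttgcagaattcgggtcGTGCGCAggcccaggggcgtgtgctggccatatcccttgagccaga
The Mt1 window held 3 matches and the Mt2 window 4; a match was also found in 36.4% of the windows of all genes tested, and it is no evidence that a factor binds there.

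Mt1 (GRCm38, Entrez 17748, chromosome 8: 94178883 to 94180327) had 25.7, 35.4, 25.5 and 29.7 CPM in LEGSKO fiber libraries 1 to 4, against 1.17, 3.02, 1.24 and 2.004 CPM in WT fiber libraries 1 to 4. All LEGSKO values lay far above all WT values. The difference was 14.96-fold (log2 3.90 ± 0.21, adjusted p = 9.00e-08) and 13.6-fold without WT fiber library 1. Mt2 (Entrez 17750, chromosome 8: 94172618 to 94173567) was close to undetected, with 0.155, 0.043, 0.199 and 0 CPM in LEGSKO fibers and 0, 1.48, 0.112 and 0.781 CPM in WT fibers. The groups overlapped. Mt2 did not pass with all libraries (log2 -2.59 ± 0.90, adjusted p = 0.180), and it passed as lower in LEGSKO without WT fiber library 1 (adjusted p = 0.0282), a call that was lost when any of LEGSKO fiber libraries 2 or 4 or WT fiber libraries 2 or 4 was left out (adjusted p up to 0.216). In epithelia both genes were higher in LEGSKO, Mt1 at 8.09 ± 1.27 against 1.72 ± 0.632 CPM and Mt2 at 5.34 ± 2.18 against 1.404 ± 0.504 CPM (SD, n = 4 each; adjusted p = 0.00203 and 0.04195). The change in fibers minus that in epithelia was log2 1.65 ± 0.39 for Mt1 (adjusted p = 0.106) and -4.56 ± 0.99 for Mt2 (adjusted p = 0.0788). How the authors' counting treated reads that match both genes is not given in the sources used here.

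Of the iron genes, transferrin alone passed with all libraries. Transferrin (Trf), the iron carrier of plasma and aqueous humour, had 10.5, 8.68, 10.9 and 7.43 CPM in LEGSKO fibers against 3.11, 4.16, 1.84 and 2.34 CPM in WT fibers, and the groups did not overlap. It rose 3.27-fold (log2 1.71 ± 0.22, adjusted p = 0.000851). Of 31 tested genes for metallothioneins, zinc and iron, Mt1 and Trf rose and 0 fell; the median log2 change was -6.86e-05. The ferritin heavy chain Fth1 had 902 to 1229 CPM in LEGSKO fibers, against 1009, 739, 779 and 776 CPM in WT fiber libraries 1 to 4. It passed only without WT fiber library 1 (log2 0.44 ± 0.09, adjusted p = 0.00819), and then not without WT fiber library 2 (adjusted p = 0.0661). The metal sensor Mtf1 did not pass (log2 0.18 ± 0.09, adjusted p = 0.333).

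The other genes with the largest rises were of several kinds. Like Mt1, they were chosen only if the groups did not overlap, so that separation is not a finding of its own. Cabp5 (Entrez 29865, chromosome 7: 13385960 to 13408887), a calmodulin-like calcium-binding protein known from retinal neurons, had 15.4, 22.7, 24.3 and 18.1 CPM in LEGSKO fibers and 4.67, 2.55, 5.02 and 4.11 CPM in WT fibers. The groups were well apart, and the rise was 4.99-fold (log2 2.32 ± 0.21, adjusted p = 5.44e-05). Clrn1 (Entrez 229320, chromosome 3: 58844028 to 58885212), clarin 1, a membrane protein of sensory hair cells, had 8.398, 7.14, 9.25 and 5.79 CPM in LEGSKO fibers against 0.8896, 1.64, 2.81 and 1.596 CPM in WT fibers. It rose 4.32-fold without overlap (adjusted p = 0.000658).

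Signalling genes were also among them. Pik3cg (Entrez 30955, chromosome 12: 32173397 to 32208677), the gamma catalytic subunit of phosphoinositide 3-kinase, had 28.99, 24.8, 31.2 and 22.9 CPM in LEGSKO fibers and 7.73, 7.59, 12.1 and 8.76 CPM in WT fibers, and rose 2.97-fold without overlap (log2 1.57 ± 0.14, adjusted p = 5.44e-05). Edaradd, the adaptor of the ectodysplasin receptor, had 13.7, 13.5, 20.1 and 16.9 CPM in LEGSKO fibers against 10.95, 2.803, 2.96 and 3.36 CPM in WT fibers. WT fiber library 1 was the highest of its group by far, and the rise was 3.399-fold with it and 5.25-fold without it (adjusted p = 0.0233 and 1.47e-05). The p21-activated kinase Pak7 showed the same position of that library, with 8.09, 9.37, 14.8 and 9.503 CPM in LEGSKO fibers against 5.17, 1.67, 1.91 and 0.951 CPM in WT fibers. Its rise was 4.62-fold (adjusted p = 0.0439) and 6.89-fold without WT fiber library 1 (adjusted p = 0.00287).

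The remaining genes of this set were Frem1, an extracellular matrix protein of basement membranes (3.22 to 4.64 CPM in LEGSKO fibers, 1.05 to 1.67 CPM in WT fibers), and Cd200, a surface protein that quiets myeloid cells (3.096 to 4.53 and 0.815 to 2.56 CPM). Pm20d1, a secreted enzyme that forms N-acyl amino acids, had 4.04 to 4.76 CPM in LEGSKO fibers and 1.32 to 1.98 CPM in WT fibers. The kinesin family member Kif26a had 6.23 to 7.74 CPM in LEGSKO fibers and 1.22 to 3.43 CPM in WT fibers. None of these 4 overlapped between groups, and they rose with log2 changes of 1.56, 1.36, 1.34 and 1.33. Of the 11 genes described here among those with the highest fold changes, 8 passed whichever library was left out. Edaradd and Cd200 each failed without LEGSKO fiber library 3 or any of WT fiber libraries 2, 3 and 4, Edaradd also without LEGSKO fiber library 4 and Cd200 without LEGSKO fiber library 2. Pak7 failed without any of the libraries other than WT fiber library 1 (adjusted p up to 0.100, 0.114 and 0.146). All 11 passed in all of these refits once WT fiber library 1 was out.

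**Figure D2:**
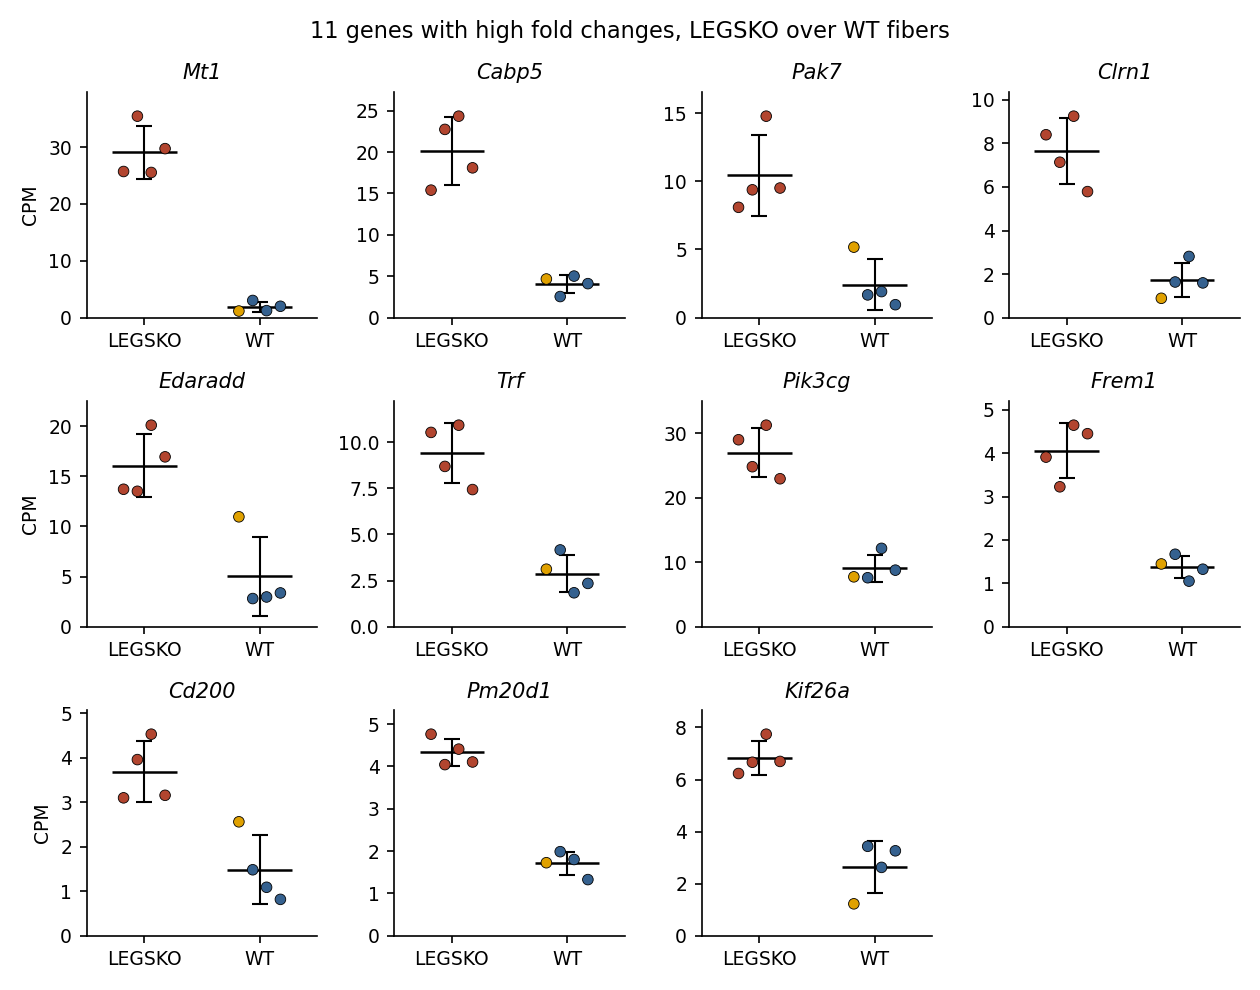
CPM (y axis, linear from 0) of 11 of the genes with the highest fold changes in LEGSKO (left) and WT (right) fibers; points are libraries, yellow marks WT library 1, lines and bars are the mean and SD of 4 libraries. No LEGSKO point lay within the WT range, which was a condition for choosing these genes. For Pak7, Edaradd and Cd200 WT library 1 lay nearest to the LEGSKO points.

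Several further genes that rose are known from neurons and secretory cells; they were picked after their values were seen and stand only as a description. Gfra1, a receptor for the growth factor GDNF, had 30.1, 32.8, 39.2 and 36.6 CPM in LEGSKO fibers against 13.96, 13.1, 19.6 and 14.98 CPM in WT fibers (log2 1.17 ± 0.11, adjusted p = 9.64e-05). The dopamine receptor gene Drd4 had 16.4 to 20.8 CPM in LEGSKO fibers and 7.95 to 12.1 CPM in WT fibers. The dopamine transporter gene Slc6a3 had 7.78 to 8.65 and 3.84 to 6.75 CPM. Neither overlapped between groups. The axon guidance cue Sema3a had 57.3 to 77.8 CPM in LEGSKO fibers and 35.97 to 41.3 CPM in WT fibers. Nsg2, a protein of neuronal endosomes, had 52.2 to 72.02 and 23.3 to 34.3 CPM, and the vesicle fusion proteins Syt5 and Cplx2 had 7.43 to 8.496 and 26.1 to 38.2 CPM in LEGSKO fibers, against 3.19 to 5.47 and 18.8 to 24.9 CPM in WT fibers. The log2 changes of these 6 genes lay between 0.58 and 0.99. Gfra1, Drd4, Sema3a and Nsg2 passed whichever library was left out; Slc6a3, Cplx2 and Syt5 did not (adjusted p up to 0.128, 0.146 and 0.0525). Of 12 tested retinal neuron and photoreceptor genes 1, Pde6b, passed, and the summed level of the list was 180 to 318 CPM in LEGSKO fibers and 251 to 287 CPM in WT fibers.

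Genes lower in LEGSKO fibers changed less. Those with the lowest fold changes were likewise chosen only among genes whose groups did not overlap. Aldh1a3 (Entrez 56847, chromosome 7: 66390892 to 66427477), which oxidises retinaldehyde to retinoic acid, had 4.53, 3.396, 2.42 and 4.88 CPM in LEGSKO fibers against 23.4, 9.29, 9.89 and 7.44 CPM in WT fibers. No value overlapped, and WT fiber library 1 was the highest by far. It fell 3.23-fold (log2 -1.69 ± 0.34, adjusted p = 0.0222) and 2.34-fold without that library (adjusted p = 0.00508). Amz1 (Entrez 231842, chromosome 5: 140724127 to 140753312), a zinc metallopeptidase, had 2.13, 0.8598, 1.67 and 1.68 CPM in LEGSKO fibers against 4.61, 5.17, 4.31 and 5.81 CPM in WT fibers. It fell 3.13-fold without overlap (log2 -1.65 ± 0.23, adjusted p = 0.00192), and WT fiber library 1 lay within the other WT values.

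Hmgn3 (Entrez 94353, chromosome 9: 83109942 to 83147358), a nucleosome-binding protein, had 221, 260.1, 227 and 216 CPM in LEGSKO fibers and 652, 352, 385 and 334 CPM in WT fibers. The LEGSKO values were tightly grouped below all WT values, and the fall was 1.86-fold with WT fiber library 1 and 1.55-fold without it (adjusted p = 0.0157 and 0.000331). Malat1, an abundant long noncoding RNA of the nucleus, had 2168, 1742, 1814 and 1943 CPM in LEGSKO fibers and 3869.6, 3406, 3188 and 2791 CPM in WT fibers, without overlap (log2 -0.79 ± 0.12, adjusted p = 0.00397). Fbxw21, an F-box protein, had 4.33 to 5.31 CPM in LEGSKO fibers and 7.796 to 11.1 CPM in WT fibers (log2 -0.93 ± 0.13, adjusted p = 0.00186).

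Among the genes with the lowest fold changes were also the lipid flippase Atp8a2, the sulfate transporter Slc26a2, the mitochondrial serine carrier Sfxn3, the ciliary protein Anks6, Fam171a2 and the tubulin pseudogene Tubb2a-ps2. Their log2 changes were -0.91, -0.87, -0.86, -0.82, -0.76 and -1.22. For Anks6 and Atp8a2, WT fiber library 1 was again the highest, at 20.3 and 12.5 CPM, against 10.3 to 12.03 and 6.63 to 7.31 CPM in the other WT libraries. Reads of the pseudogene can come from near-identical tubulin genes, so its count is uncertain. Amz1, Fbxw21 and Malat1 passed whichever library was left out. The other 8 described here each failed without at least 1 library, Sfxn3 and Fam171a2 without LEGSKO fiber library 3 alone (adjusted p = 0.0625 and 0.0525), Aldh1a3 without LEGSKO fiber library 2 or 3, and Hmgn3 without LEGSKO fiber library 3 or 4 (up to 0.100 and 0.0709). Anks6 failed without any of the LEGSKO fiber libraries, Slc26a2 without any library other than LEGSKO fiber library 1 and WT fiber library 1, and Atp8a2 and Tubb2a-ps2 without any library other than WT fiber library 1 (up to 0.0919, 0.102, 0.128 and 0.146).

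**Figure D3:**
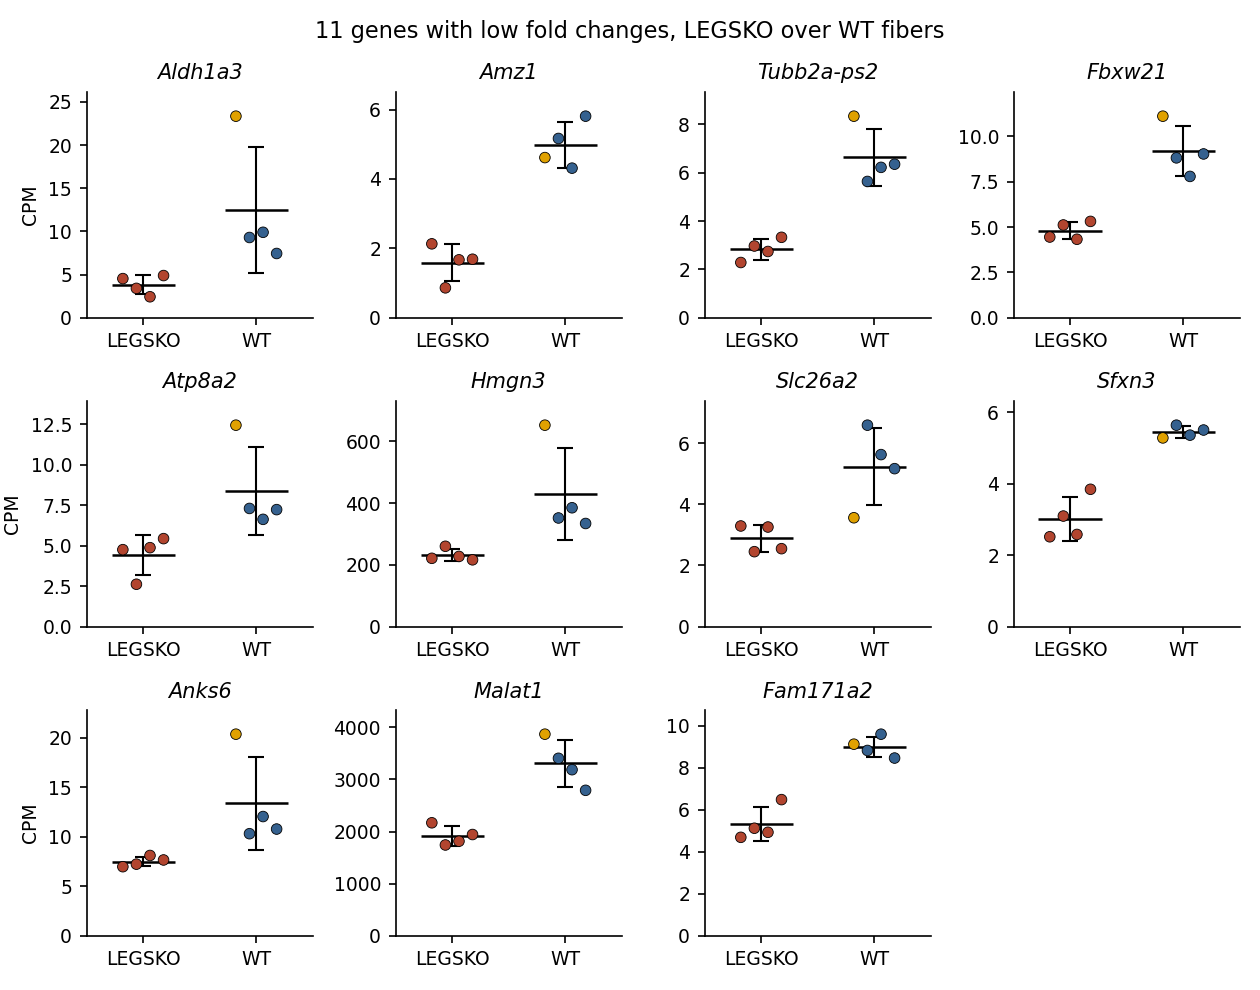
CPM (y axis, linear from 0) of 11 of the genes with the lowest fold changes in LEGSKO (left) and WT (right) fibers; points are libraries, yellow marks WT library 1, lines and bars are the mean and SD of 4 libraries. All LEGSKO points lay below all WT points in each panel, which was a condition for choosing these genes. For Slc26a2 the gap was narrow, with WT library 1 at 3.56 CPM.

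Antioxidant enzymes changed in single members. Glutathione peroxidase 1 (Gpx1), which reduces hydrogen peroxide with glutathione, had 88.1, 101, 97.3 and 80.99 CPM in LEGSKO fibers against 69.2, 69.2, 68.9 and 66.9 CPM in WT fibers, without overlap. It rose 1.34-fold (log2 0.42 ± 0.07, adjusted p = 0.01002), and not past the threshold without LEGSKO fiber library 3 (adjusted p = 0.0564). It was the only called member of 6 tested peroxidases, catalase and superoxide dismutases. Microsomal glutathione S-transferase 1 (Mgst1) had 109, 131, 122 and 113 CPM in LEGSKO fibers and 59.8, 77.3, 69.2 and 77.2 CPM in WT fibers, and rose 1.68-fold without overlap (log2 0.74 ± 0.10, adjusted p = 0.00121). It was the only called one of 20 tested glutathione S-transferases, joined by Gstk1 and Gstm7 without WT fiber library 1.

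Of 30 tested target genes of NRF2, the transcription factor that answers oxidative stress, 0 passed with all libraries in edgeR, 7 had an unadjusted p below 0.05 (14.97% of all genes tested did), and DESeq2 called 2 and limma-voom 3. The list's median log2 change was 0.06. Of 25 tested genes of the thioredoxin, peroxiredoxin and glutaredoxin systems, 0 passed in edgeR, with 6 below an unadjusted p of 0.05, 0 calls by DESeq2 and 2 by limma-voom. Without WT fiber library 1, G6pdx, Taldo1, Tkt, Fth1 and Aox1 rose among the NRF2 targets and the autophagy receptor Sqstm1 fell, while the thioredoxin inhibitor Txnip rose and peroxiredoxin 6 (Prdx6) fell. The Prdx6 call was lost in 5 of 7 fits without a further library (adjusted p up to 0.110), that of G6pdx in 6, of Tkt in 5, of Taldo1 in 4 and those of Fth1, Txnip and Sqstm1 in 1. Prdx6 had 341, 401, 327 and 359 CPM in LEGSKO fibers and 314, 452, 466 and 417 CPM in WT fibers. WT fiber library 1 lay below all LEGSKO libraries for that gene, and the other WT libraries lay above them.

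Aldehyde-metabolising enzymes moved in both directions: 3 of 30 tested members rose and 2 fell, with a median log2 change of 0.03. Aldh1a1, a cytosolic aldehyde dehydrogenase, had 224, 264, 282 and 199 CPM in LEGSKO fibers against 151, 120.1, 117 and 90.1 CPM in WT fibers. All LEGSKO values were higher, and it rose 2.03-fold (log2 1.02 ± 0.14, adjusted p = 0.00192), or 2.21-fold without WT fiber library 1. Its close relative Aldh1a7 had 25.1 to 35.9 CPM in LEGSKO fibers and 11.6 to 22.9 CPM in WT fibers (log2 0.95 ± 0.17, adjusted p = 0.0103, or 0.0542 without LEGSKO fiber library 3). The sequences of these genes are similar enough that reads may have been shared between them. The aldo-keto reductase Akr1c13 rose and Aldh18a1, an enzyme of proline synthesis, fell with Aldh1a3; their log2 changes were 0.86 and -0.36, and both were lost without any single library other than WT fiber library 1 (adjusted p up to 0.0958 and 0.166).

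Whether crystallins were higher or lower in LEGSKO fibers depended on WT fiber library 1. With all libraries, 0 of 16 tested crystallin genes passed in edgeR or limma-voom, and 1 had an unadjusted p below 0.05 in edgeR. DESeq2 called 0 of the 9 to which it gave a p and gave none to the other 7. All 16 had a log2 change below 0, with a median of -0.36. Without that library all 16 lay above 0, with a median of 0.29, and 7 rose: Crybb3 and the gamma crystallins Cryga to Crygf. That library was left out because of its crystallin share, so the calls of this fit rest on the values behind that choice. They stand as a description. Crygc had 12643, 19365, 16306 and 15479.7 CPM in LEGSKO fiber libraries 1 to 4 and 63910.0, 7797, 11316 and 7177 CPM in WT fiber libraries 1 to 4. LEGSKO values lay above WT libraries 2 to 4 and far below WT library 1. The log2 change was -0.50 ± 0.53 with all libraries (adjusted p = 0.700) and 0.86 ± 0.16 without WT fiber library 1 (adjusted p = 0.004899).

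Crygd and Crygf showed the same order of libraries. Crygd had 6901, 10940.0, 9054 and 8592 CPM in LEGSKO fibers against 51147, 4478, 6309 and 4313 CPM in WT fibers. Crygf had 344, 552, 516 and 454 CPM in LEGSKO fibers and 9508, 258, 340.2 and 233 CPM in WT fibers, so that WT fiber library 1 was 34.3 times the mean of the other WT libraries. The 7 calls were also sensitive to the remaining WT libraries: with WT fiber library 1 out, 0 of them held without WT fiber library 2, 2 without WT fiber library 4 and 5 without LEGSKO fiber library 3. Cryga and Crygb overlapped with WT fiber libraries 2 to 4: the lowest LEGSKO values were 349.96 and 13993 CPM, and the highest of those WT values 358 and 14377 CPM. Crygn, Crygs, the alpha crystallins and the other beta crystallins did not pass in either fit; Cryaa changed by log2 0.22 ± 0.10 and Crybb2 by 0.06 ± 0.10 without WT fiber library 1 (adjusted p = 0.262 and 0.805).

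**Figure D4:**
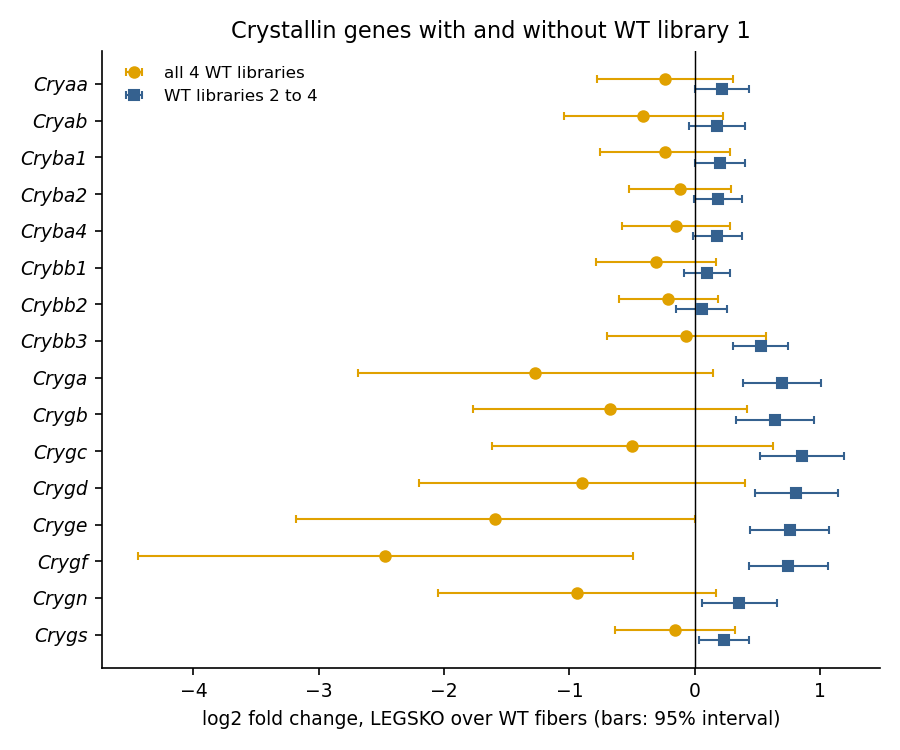
Log2 fold change, LEGSKO over WT fibers (x axis), of 16 crystallin genes, with all 4 WT libraries (yellow circles) and with WT libraries 2 to 4 (blue squares); bars are 95% intervals of the edgeR fits. All circles lay below 0 and all squares above it.

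WT fiber library 1 differed from its group in other genes too. The muscle-type phosphoglycerate mutase Pgam2 had 18, 37.4, 32.99 and 26.5 CPM in LEGSKO fibers, against 160.2, 14.05, 13.9 and 21.1 CPM in WT fiber libraries 1 to 4. In WT fiber library 1, Svbp, which pairs with the tubulin-cleaving vasohibins, was 7.46 times the mean of the other WT libraries. Tinag, a protein of basement membranes, was 9.94-fold lower in WT fiber library 1 than that mean. Of the 73 genes called lower in LEGSKO fibers, 44 (60.3%) had their highest WT value in that library, as did 35.5% of all genes tested. Of the 147 called higher, 54 (36.7%) had their lowest WT value there, as did 35.4% of all genes tested. The calls rest on these values, so the first share is a description.

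Among other genes of fiber identity, single members passed, as did 1.64% of all genes tested. Of 31 tested fiber membrane and beaded filament genes, 1 rose: vimentin (Vim), the intermediate filament protein of lens cells, had 2426, 2992, 2963 and 2409 CPM in LEGSKO fibers and 2159.8, 1867, 1922 and 1721 CPM in WT fibers (log2 0.49 ± 0.10, adjusted p = 0.02701). The ranges did not overlap; the call was lost without LEGSKO fiber library 2 or 3 or any of WT fiber libraries 2, 3 and 4 (adjusted p up to 0.117). Of 21 tested RNA-binding proteins of the lens, 1 fell: Caprin2 had 140.1, 123, 135 and 142 CPM in LEGSKO fibers against 245, 189, 193 and 184 CPM in WT fibers (log2 -0.59 ± 0.10, adjusted p = 0.006102). Of 30 tested lens transcription factors, Tfap2a rose, with 40.3, 37.01, 38.6 and 41.2 CPM in LEGSKO fibers and 28.2, 29.5, 31.9 and 29.5 CPM in WT fibers, a narrow but complete separation (log2 0.40 ± 0.06, adjusted p = 0.00489). Of 24 tested lens epithelial markers 0 passed in edgeR, with 5 below an unadjusted p of 0.05, 1 call by DESeq2, 3 by limma-voom and a median log2 change of -0.07.

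A pair of genes outside the lists, picked after their values were seen, rose as well. Dapl1 had 1299.5 to 1683 CPM in LEGSKO fibers and 933 to 1021 CPM in WT fibers (log2 0.61 ± 0.09, adjusted p = 0.00319). Pygl, liver-type glycogen phosphorylase, had 209 to 258 CPM in LEGSKO fibers and 139 to 182 CPM in WT fibers (log2 0.63 ± 0.10, adjusted p = 0.00474).

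Calls in glucose metabolism depended on WT fiber library 1 and on the tool. With all libraries 0 of 32 tested genes of glycolysis and the pentose phosphate pathway passed in edgeR, 5 had an unadjusted p below 0.05, and DESeq2 called 2 and limma-voom 4. The median log2 change was 0.06. Without WT fiber library 1, 7 of 33 rose and 1 fell, against 2.61% and 1.73% of all genes in that fit, and the median was 0.14, against -0.01 over all genes. The rises included 3 enzymes of the pentose phosphate pathway, which supplies the NADPH that keeps glutathione reduced. Transketolase (Tkt) had 248, 282, 259 and 227 CPM in LEGSKO fibers against 208, 215 and 195 CPM in WT fiber libraries 2 to 4 and 223 CPM in WT fiber library 1. Transaldolase (Taldo1) had 23.5, 29.7, 26.96 and 23.8 CPM in LEGSKO fibers against 20.4, 21.9 and 19.8 CPM in WT fiber libraries 2 to 4 and 30.9 CPM in WT fiber library 1. G6pdx, glucose-6-phosphate dehydrogenase, had 23.3, 25.4, 24.7 and 24.1 CPM in LEGSKO fibers against 21.1, 20.5 and 16.03 CPM in WT fiber libraries 2 to 4 and 30.4 CPM in WT fiber library 1. In Taldo1 and G6pdx, WT fiber library 1 exceeded every LEGSKO library.

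Hexokinases went opposite ways: Hk2 had 55.2, 49.8, 55.6 and 50.8 CPM in LEGSKO fibers against 38.5, 43.6 and 44.9 CPM in WT fiber libraries 2 to 4, and Hk1 had 19.2, 17.7, 17.8 and 15.6 CPM in LEGSKO fibers against 23.7, 20.9 and 23.8 CPM. The log2 changes without WT fiber library 1 were 0.31 ± 0.07 and -0.38 ± 0.08 (adjusted p = 0.0232 and 0.0141). Gapdh, Eno2 and Pgam2 were the other genes that rose. Of the 7 higher calls, 1 remained when LEGSKO fiber library 3 or WT fiber library 2 was also left out, and 3 remained when LEGSKO fiber library 2, WT fiber library 3 or WT fiber library 4 was. With all libraries, Hk2 passed in the fit with the replicate block (adjusted p = 0.0488).

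Single genes of lysosomal enzymes changed in either direction. Cathepsin D (Ctsd), the main aspartic protease of lysosomes, had 313, 325, 288 and 293 CPM in LEGSKO fibers against 439, 409.6, 361 and 382 CPM in WT fibers (log2 -0.39 ± 0.08, adjusted p = 0.0221); it was the only one of 38 tested genes of denucleation and organelle clearance to pass. The lysosomal enzymes Gaa (acid alpha-glucosidase), Hgsnat (a heparan sulfate acetyltransferase) and Hyal1 (a hyaluronidase), picked after their values were seen, also fell, with log2 changes of -0.31, -0.34 and -0.65. Each of these 4 calls was lost without LEGSKO fiber library 3, among others (adjusted p up to 0.146 for Gaa, 0.135 for Hgsnat, 0.106 for Hyal1 and 0.104 for Ctsd). A different lysosomal enzyme, the beta-mannosidase Manba, rose: it had 15.2, 15.8, 15.6 and 16.8 CPM in LEGSKO fibers and 7.01, 9.61, 7.12 and 8.899 CPM in WT fibers (log2 0.95 ± 0.10, adjusted p = 0.000196).

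Matrix and growth factor genes changed in single members. Col4a3, a type IV collagen chain of the lens capsule, had 394, 259, 348 and 348 CPM in LEGSKO fibers against 517, 508, 433 and 463 CPM in WT fibers (log2 -0.51 ± 0.12, adjusted p = 0.0404); of 27 tested capsule and matrix genes it alone passed, while the median was -0.22. Lamb2 and Hspg2, also basement membrane genes, fell with it once WT fiber library 1 was left out; the Hspg2 call was lost without LEGSKO fiber library 3, WT fiber library 2 or WT fiber library 4 as well. Among 41 tested genes of TGF-beta signalling and epithelial-mesenchymal transition, Acta2 (smooth muscle actin, 624 to 739 CPM in LEGSKO fibers, 485 to 555 CPM in WT fibers) and Vim rose; Acta2 is also a muscle and stroma marker. Of 26 tested FGF signalling genes, the intracellular factor Fgf12 rose, at 53.9, 56.4, 62.8 and 55.8 CPM in LEGSKO fibers and 30.7, 33.1, 38.3 and 33.4 CPM in WT fibers. The ERK phosphatase Dusp4 fell, at 0.774, 0.774, 1.19 and 0.907 CPM in LEGSKO fibers and 2.34, 2.71, 2.89 and 2.14 CPM in WT fibers. Both separated the groups, with log2 changes of 0.76 ± 0.08 and -1.46 ± 0.21 (adjusted p = 0.000269 and 0.00284), and both passed whichever library was left out. Acta2 and Col4a3 did not (adjusted p up to 0.134 and 0.117).

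Transporters gave calls in single genes, where 1.64% of all genes tested were called. Of 26 tested amino acid and ascorbate transporters 1 rose, the glutamate transporter Slc1a2 (log2 1.03 ± 0.13, adjusted p = 0.000851). It had 12.7, 10.02, 12.3 and 10.3 CPM in LEGSKO fibers and 4.84, 6.61, 4.61 and 5.94 CPM in WT fibers. Of 39 tested ion and water transport genes, the urea transporter Slc14a1 rose and the sodium bicarbonate cotransporter Slc4a4 fell. Slc14a1 was low, at 1.39, 2.71, 2.54 and 0.9503 CPM in LEGSKO fibers and 0.0556, 0.189, 0.262 and 0.204 CPM in WT fibers, and did not overlap (log2 3.32 ± 0.48, adjusted p = 0.00233). Slc4a4 had 32.6, 24.03, 27.2 and 26.4 CPM in LEGSKO fibers and 38.8, 40.9, 35.6 and 38.9 CPM in WT fibers (log2 -0.48 ± 0.09, adjusted p = 0.0191), a call lost without LEGSKO fiber libraries 2, 3 or 4 or WT fiber libraries 2 or 4 (adjusted p up to 0.0846). Carbonic anhydrase 2 (Car2), outside the lists and picked after its values were seen, had 32.1 to 39.2 CPM in LEGSKO fibers and 14.7 to 18.8 CPM in WT fibers (log2 1.04 ± 0.11, adjusted p = 0.000151).

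Stress and death pathways gave calls in single genes, where 1.64% of all genes tested were called. In the unfolded protein and integrated stress response, Atf5 rose and Cebpb fell among 39 tested genes, and the median was -0.15. Cebpb was at 0.119 to 0.194 CPM in LEGSKO fibers and 0.487 to 1.33 CPM in WT fibers and was lost without any 1 library. Atf5 had 50.6, 55.8, 52.9 and 46.5 CPM in LEGSKO fibers and 40.1, 39.3, 36.6 and 41.8 CPM in WT fibers (log2 0.38 ± 0.09). Without WT fiber library 1, the endoplasmic reticulum genes Hsp90b1, Dnajc3 and Xbp1 fell, and the serine synthesis enzymes Psat1 and Phgdh rose. Leaving out a further library ended these calls in 3 to 6 of 7 fits each (adjusted p up to 0.206). Of 38 tested heat shock genes Hspa4l fell, with 42.2 to 46.4 CPM in LEGSKO fibers and 52.7 to 57.7 CPM in WT fibers. Of 38 tested p53 targets and apoptosis genes, Mdm2, which degrades p53, and Bax, which opens the mitochondrial outer membrane, fell, and Gadd45g rose. Mdm2 had 84.4, 83.3, 78.2 and 86.9 CPM in LEGSKO fibers against 128, 105, 107 and 102 CPM in WT fibers, without overlap (log2 -0.41 ± 0.08, adjusted p = 0.0227). Bax had 68.5, 83.5, 64.5 and 71.1 CPM in LEGSKO fibers and 95.4, 97.9, 94 and 87.9 CPM in WT fibers (log2 -0.38 ± 0.08, adjusted p = 0.0325). The p53 and Hspa4l calls, and that of Atf5, failed without LEGSKO fiber library 3 and without others (adjusted p up to 0.136).

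Of 34 tested genes of cholesterol synthesis and uptake, the sterol exporter Abcg1 rose, at a low level, and the median was -0.20. Abcg1 had 0.735, 0.559, 1.27 and 1.43 CPM in LEGSKO fibers and 0, 0.0945, 0.075 and 0.238 CPM in WT fibers. It separated the groups but failed without any of LEGSKO fiber libraries 3 and 4 and WT fiber libraries 2 and 3 (adjusted p up to 0.111). Without WT fiber library 1, squalene synthase (Fdft1), the sterol sensor Insig1 and the lysosomal cholesterol exporter Npc1 fell, calls that were lost in 3 or 4 of 7 fits without a further library. Insig1 had 428, 434, 446 and 384 CPM in LEGSKO fibers and 524, 596, 489 and 576 CPM in WT fibers.

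Several lists gave 0 calls by edgeR, with or without WT fiber library 1. With all libraries, unadjusted p-values were below 0.05 for 14.97% of all genes tested, and for 4 of 26 tested genes of Wnt signalling, 3 of 28 of interferon, complement and class I antigen presentation, 3 of 36 proteasome subunits and 3 of 84 cytosolic ribosomal proteins. The same held for 2 of 16 genes of Notch signalling and 1 of 12 immediate early genes. Limma-voom called 0 genes of these lists, and DESeq2 called 2, both of Wnt signalling. With WT fiber library 1 left out, unadjusted p-values were below 0.05 for 6, 4, 4, 4, 1 and 1 genes of these lists and 18.98% of all genes, DESeq2 called 3 of Wnt signalling and 1 ribosomal protein gene, and limma-voom called 1 of Wnt signalling. Ribosomal protein genes still leaned one way, with 73 of 84 above 0 and a median log2 change of 0.06. Their summed level overlapped between groups, at 64983 to 89167 CPM in LEGSKO fibers and 68054 to 74163 CPM in WT fibers. Of 60 tested replication-dependent histone genes, all 60 had a log2 change above 0 with all libraries, with a median of 0.25, against 6384 of 13436 among all genes tested. Of the 60, 0 passed in edgeR, 18 had an unadjusted p below 0.05, and DESeq2 called 1 and limma-voom 2. With WT fiber library 1 left out, the median was 0.42, 59 lay above 0 and 7 passed, and 1 to 19 did when a further library was left out, fewest without WT fiber library 2 and most without LEGSKO fiber library 1. The histone genes are near-identical copies, and 14 of the 60 had counts within 1% of another member's in all 8 libraries, so they are not 60 separate measurements.

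The response of fibers was then set against that of epithelia. In epithelia 127 of 15089 genes (0.842%) differed between LEGSKO and WT, 88 (0.583%) higher and 39 (0.258%) lower in LEGSKO, and 13 of these were also called in fibers, all in the same direction. That is 10.2% of the calls in epithelia and 5.91% of those in fibers. The difference between tissues passed its own test for 16 of 15560 genes (0.103%), with 5 (0.0321%) more positive and 11 (0.0707%) more negative in fibers, and 12 of the 16 were called in fibers. Clrn1 rose more in fibers (log2 2.11) than in epithelia (0.64), a difference of 1.45 ± 0.28 (adjusted p = 0.0362). Manba was higher in LEGSKO fibers and had a log2 change of -0.45 in epithelia (adjusted p = 0.08796), where it had 19.5, 28.8, 20.9 and 21.5 CPM in LEGSKO and 31.97, 28.7, 33.4 and 29.4 CPM in WT libraries; the difference was 1.38 ± 0.16 (adjusted p = 9.35e-05).

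The genes below were selected by the test of a difference, which favours opposite signs. The vesicle protein Ptprn2 had log2 changes of 1.07 in fibers and -0.36 in epithelia, the transcription factor Sox4 of 0.87 and -0.39, and Amz1 of -1.65 and 0.71. Hmgn3 changed by -0.90 and 0.13. None of these 4 passed in epithelia alone, while their differences passed (adjusted p = 0.0362, 0.0288, 0.00414 and 0.0362). In Sox4, fibers had 5.31 to 5.92 CPM in LEGSKO and 2.41 to 3.56 CPM in WT libraries. Further fiber-called genes with a difference were Zfp185, Actr5, Hyal1, Sfxn3 and 1700025G04Rik. When WT fiber library 1 was left out, 46 genes differed (0.292%; 25 or 0.159% more positive, 21 or 0.133% more negative), 15 of the 16 among them, and the count of 16 fell to 4 without LEGSKO fiber library 1, LEGSKO fiber library 3 or LEGSKO epithelial library 2.

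**Figure D5:**
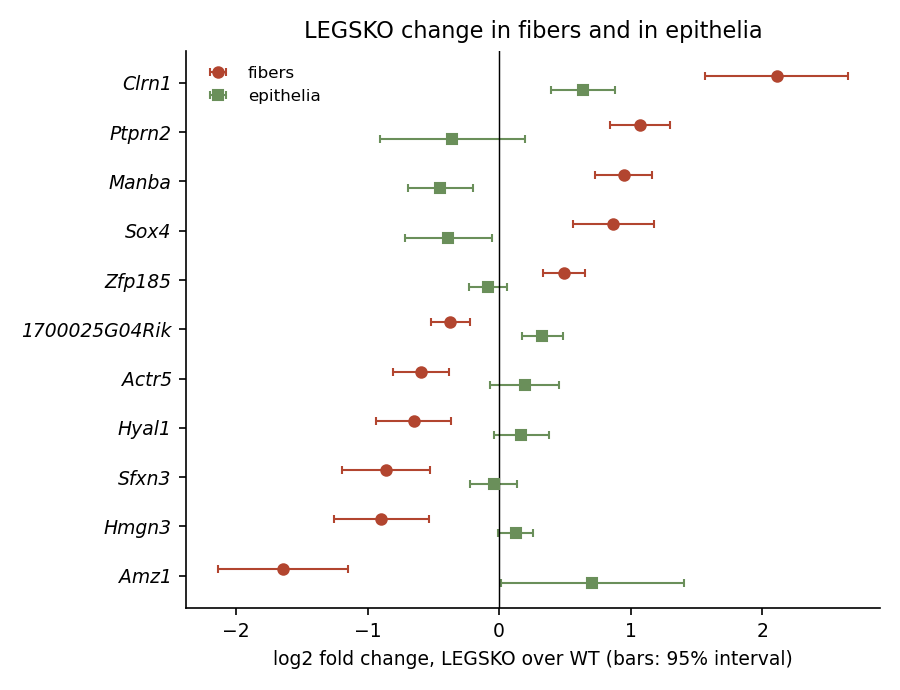
Log2 fold change, LEGSKO over WT (x axis), in fibers (red circles) and epithelia (green squares) for 11 of the genes called in fibers whose change differed between tissues; bars are 95% intervals of the separate edgeR fits. For 9 genes the circle and the square lay on opposite sides of 0; for Clrn1 and Sfxn3 they lay on the same side.

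LEGSKO fibers exposed to BSO were set beside the same WT libraries; since both comparisons share them, only the values are given. Against WT fibers, 742 of 13436 genes (5.52%) differed in LEGSKO+BSO fibers, 410 (3.05%) higher and 332 (2.47%) lower; their libraries were deeper, at 39.0 to 46.6 M counts. Mt1 had 28.1, 31.4, 32.6 and 35.9 CPM in LEGSKO+BSO fibers, within or next to the 25.5 to 35.4 CPM of LEGSKO fibers and far from the 1.17 to 3.02 CPM of WT fibers. Cabp5 had 18.5 to 30.8 CPM in LEGSKO+BSO fibers, 15.4 to 24.3 CPM in LEGSKO fibers and 2.55 to 5.02 CPM in WT fibers. Pik3cg had 19.6 to 23.8, 22.9 to 31.2 and 7.59 to 12.1 CPM in the same order of groups, and Aldh1a3 had 2.26 to 4.61, 2.42 to 4.88 and 7.44 to 23.4 CPM. The gamma crystallin Crygc had 9413 to 12902 CPM in LEGSKO+BSO fibers, 12643 to 19365 CPM in LEGSKO fibers and 7177 to 11316 CPM in WT fiber libraries 2 to 4. Prdx6 had 304 to 358, 327 to 401 and 417 to 466 CPM in that order.

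Markers of other cells were compared last. Of the genes tested, 0 of 3 immune cell and 0 of 3 blood vessel markers passed in edgeR, DESeq2 or limma-voom. Nor did any of 5 pigmented iris and ciliary body and 6 corneal and conjunctival markers. In edgeR 1 of these 17, a corneal and conjunctival one, had an unadjusted p below 0.05. Over all genes tested 1.64% passed and 14.97% had such a p. Most members were not tested, in the same order 15 of 18, 10 of 13, 9 of 14 and 10 of 16, so these counts say little about them. Immune cell markers summed to 1.11 to 1.70 CPM in LEGSKO fibers and 0.985 to 2.17 CPM in WT fibers. Of 5 tested muscle and stroma markers Acta2 rose, joined by the muscle creatine kinase Ckm without WT fiber library 1. The list summed to 1081 to 1188 CPM in LEGSKO fibers and 951 to 1158 CPM in WT fibers. The 9 red blood cell markers were too low to be tested; their sum was 0.0432 to 2.36 CPM in LEGSKO fibers, highest in LEGSKO fiber library 1, and 0.112 to 0.278 CPM in WT fibers. Of the retinal list, Pde6b, a subunit of the rod phosphodiesterase, passed, with 3.48, 2.54, 2.18 and 2.203 CPM in LEGSKO fibers and 0.723, 1.48, 1.499 and 0.815 CPM in WT fibers (log2 1.18 ± 0.27, adjusted p = 0.0392). LEGSKO fiber library 1 had the highest Pde6b; without it, or without any of LEGSKO fiber libraries 2, 3 and 4 and WT fiber libraries 2 and 4, Pde6b did not pass (adjusted p up to 0.104), and the part of retinal RNA in this result was not tested. Called genes lay on all 19 autosomes and X, at 0.668% of the genes tested on chromosome 1 up to 2.76% on chromosome 15; chromosome 9, which holds Gclc, had 1.90%.

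Promoter windows were available for 109 of the 147 genes that rose, 50 of the 73 that fell and 10595 of the 13436 tested. The core antioxidant response element, searched as TGACNNNGC on both strands and bound by NRF2, was found in 10.1% of the windows of genes that rose, 12% of those that fell and 14.98% of all tested. The metal response element was found in 28.4%, 44.0% and 36.4%, the heat shock element (GAA, NN, TTC, NN and GAA in a row) in 0.917%, 0 and 0.415%, and the sterol regulatory element (TCACNCCAC) in 0.917%, 6.00% and 1.01%. These shares are descriptions of letters in the windows, with 3 windows behind the 6.00%. Among genes called without WT fiber library 1 the sterol regulatory element was found in 1.07% of the windows of genes that rose, 2.75% of those that fell and 1.02% of all tested, and the antioxidant response element in 13.2%, 17.6% and 14.9%.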

How the data were processed

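Lens RNA was sequenced in 24 libraries; the comparison of LEGSKO with WT cortical fibers used 8, and 12 fiber libraries in 3 groups (LEGSKO, LEGSKO+BSO and WT) were fitted together so that they shared 1 estimate of the spread. The deposited values are raw counts per gene, in 1 table the authors made of 24415 Entrez identifiers, and columns were matched to samples through the labels. The submitters' processing notes name CASAVA 1.8, bcl2fastq, TopHat, DESeq and the build mm10 (GRCm38); the notes and labels do not name a counting tool, an annotation or a strand setting. If strand was not used, a gene and its antisense partner share reads. A RefSeq table of GRCm38.p6 gave symbols and coordinates to 24334 identifiers; the 81 others held 1.10% of fiber counts and stayed in the tests.

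Counts were tested with edgeR 4.0.16 (R 4.3.3): TMM scaling, filterByExpr (minimum count 10, minimum total 15), quasi-likelihood F tests, two-sided, with Benjamini-Hochberg adjustment over all genes tested and a threshold of 0.05. The test was repeated without WT fiber library 1. The difference between tissues was tested as an interaction over 24 libraries in 6 groups, all taken as independent. The common biological coefficient of variation was 12.8%, or 9.65% without WT fiber library 1. Alternatives were DESeq2 (1.42.0) and its size factors, limma-voom (limma 3.58.1) with library quality weights, scaling without crystallin genes, no low-count filter, the 8 libraries alone, the replicate number as a block, and leaving out each library. Same-numbered LEGSKO and WT fiber libraries showed no pairing, and pairing of fibers with epithelia by number was not checked. No 2 libraries of a group were duplicates. On simulated counts of 13351 genes, the fiber test recovered 68.7%, 95.5% and 100% of genes changed 1.5-fold, 2-fold and 4-fold, and called 12 unchanged genes. The changed genes were drawn from those with a mean above 1 CPM. Counts were drawn separately for each gene, so no simulated library departed in many genes at once as WT fiber library 1 did. The shares therefore hold for cleaner data than these.

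The comparison and all 47 gene lists were chosen with earlier results of these data known. Named genes were Gclc, Gclm and Gss; the 12 highest and 12 lowest fold changes among genes that passed, had a mean log2 CPM of at least 1 and groups that did not overlap, without clone or predicted-gene names; 6 each way without WT fiber library 1; the 3 smallest adjusted p-values below 0.05 and the 2 highest levels per list; the 6 smallest p-values for the difference between tissues; and the genes in which WT fiber library 1 departed most from its group. Not all of the 188 genes so named are described, and some results are not reported here; genes outside the rule were chosen after their values were seen and are marked where they appear, apart from Aldh18a1, Aox1, Cebpb, G6pdx, Mt2, Mtf1, Phgdh, Ptprn2, Tkt and Xbp1, which belong to a list or a count described there.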

Additional observations from a re-analysis of the deposited data

Results flagged for a closer look

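A library stood apart from the other 3 of its group (its gap to the nearest other library, over the group's range, was above Dixon's 95% critical value) in 31 of 226 groups looked at, and in 25 of these it was WT fiber library 1. Chance gives about 1 in 20, but the genes include those named because WT fiber library 1 departed most from its group, so the count cannot be read against that rate. The share of crystallin counts, at 50.1% in WT fiber library 1, was the known reason to give results with and without it.

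WT fiber library 1 was the highest WT library in crystallins: Crybb3 was at 19525 CPM there, Cryga at 3814, Crygb at 79100.1, Crygc at 63910.0, Crygd at 51147, Cryge at 15761 and Crygf at 9508 CPM. It was also the highest in enzymes and stress genes, with Gclc at 135, Gapdh at 2087, Pgam2 at 160.2, Eno2 at 6.23, Pygl at 182, Psat1 at 66.9, Fdft1 at 102, Aldh1a3 at 23.4, Txnip at 16.3 and Fth1 at 1009 CPM. Hmgn3 at 652, Caprin2 at 245, Atp8a2 at 12.5, Edaradd at 10.95, Emid1, an extracellular matrix gene, at 10.9 and Krt18, a keratin of simple epithelia, at 16.6 CPM were the other genes in which it stood above its group. It stood below its group in Ptgfr, the prostaglandin F receptor, at 1.67 CPM.

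Other libraries were set apart in 6 genes. LEGSKO fiber library 3 was the highest LEGSKO library in Gclm (108 CPM) and Krt18 (3.93 CPM), and LEGSKO fiber library 2 was the highest in Akr1c13 (4.73 CPM) and the lowest in Gstk1 (5.29 CPM). WT fiber library 2 was the lowest WT library in Ptprn2 (3.21 CPM) and WT fiber library 4 in Gpx1 (66.9 CPM).

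The LEGSKO change differed between fibers and epithelia by the interaction test in genes named in that comparison. On the log2 scale, fibers minus epithelia, the difference was 1.45 for Clrn1, 1.41 for Ptprn2, 1.38 for Manba, 1.25 for Sox4 and 0.56 for Zfp185. It was -0.81 for Actr5, -0.83 for Hyal1, -0.84 for Sfxn3, -1.04 for Hmgn3 and -2.36 for Amz1.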

How the results depend on the processing

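The 220 genes called in LEGSKO against WT fibers became 224 with DESeq2's size factors, 221 when crystallins were left out of the scaling and 239 without the low-count filter. They became 514 with DESeq2, 497 with limma-voom and quality weights (WT fiber library 1 at 0.282, LEGSKO fiber library 2 at 0.442), 85 with the 8 libraries alone and 143 with the replicate number as a block. Leaving out 1 library gave 61 (without LEGSKO fiber library 3) to 591 (without WT fiber library 1). The 591 genes called without WT fiber library 1 became 902 with DESeq2, 498 with the replicate block, 595, 596, 671 and 816 under the other alternatives, all added after the data were seen, and 217 to 754 when a further library was left out. The 16 genes that differed between tissues became 83 with DESeq2 and 10 with the replicate block, and 4 to 46 when 1 library was left out. The numbers do not pair LEGSKO with WT fibers: deviations of same-numbered LEGSKO and WT fiber libraries correlated at -0.17, -0.05, -0.16 and 0.04. Fibers and epithelia of the same number were not checked in this way.

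Some log2 changes below 0 with all libraries were above 0 when WT fiber library 1 was left out. Over the fits without 1 library they ranged, highest without WT fiber library 1, over -0.23 to 0.53 for Crybb3, -1.60 to 0.70 for Cryga, -0.96 to 0.64 for Crygb, -0.79 to 0.86 for Crygc, -1.21 to 0.81 for Crygd, -1.94 to 0.76 for Cryge, -2.84 to 0.75 for Crygf, -1.16 to 0.80 for Pgam2, -1.22 to 2.09 for Krt18 and -0.31 to 0.052 for Gclc. Crybb3 was 0.01 without LEGSKO fiber library 1 as well. With quality weights the change was also above 0 for Crybb3 (0.34), Cryga (0.37), Crygb (0.36), Crygc (0.57), Crygd (0.48), Cryge (0.39), Crygf (0.32), Krt18 (2.05) and Pgam2 (0.58), and with the replicate block for Crybb3 (0.090), Crygc (0.092) and Krt18 (0.33). Gss ranged over -0.025 to 0.12, lowest without LEGSKO fiber library 2. Of 68 called genes followed through these settings, 31 passed whichever library was left out. When the 8 compared libraries were fitted alone, 27 of the 68 lost their call, and with the replicate block 16 did. At this depth 1 CPM of the scaled totals stands for 17.99 to 31.7 counts, which limits the precision of genes below it, such as Abcg1, Cebpb and Mt2.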
